A study of Mus musculus with 52 samples.

Results

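Osteocalcin and dentin matrix protein are products of osteoblasts that have reached the mineralising stage, and their RNA differed widely among these primary mouse osteosarcomas. The tumours described here are the 10 with the highest and the 10 with the lowest RNA of Bglap, Bglap2 and Dmp1, called the high and the low tumours. They were drawn from 31 tumours, out of 52 libraries in the series. The 31 are the 34 libraries whose column names lack the prefix R1002, less 3 p53R245W/fl libraries in which Col1a1, the gene for the main collagen chain of bone, was under 13 log2 CPM (CPM being counts scaled to a common library total). The score that ranked the tumours was the mean of log2(CPM + 1) of Bglap, Bglap2 and Dmp1, with CPM taken over each library's total count. The 3 genes therefore chose the groups, and their own difference between the groups is a description, not a result.

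All tumours were primary osteosarcomas of mice with altered Trp53, the gene of the tumour suppressor p53, and none came from animals with unaltered Trp53. The p53fl/fl group carried conditional alleles on both copies. In the other two genotypes, p53R172H/fl and p53R245W/fl, a conditional allele was combined with an allele holding the missense change in the name. The labels say nothing of the Cre driver, the age or the sex of the animals. Each of the 31 libraries is a separate tumour by its number, and p-values measure the spread between these samples. The libraries with the prefix R1002 are taken up apart, near the end. The high tumours were 2 p53fl/fl, 6 p53R172H/fl and 2 p53R245W/fl, and the low tumours were 4, 5 and 1 in that order. Genotype was a covariate of each test.

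Bglap and Bglap2 encode osteocalcin, a small protein that binds mineral and also circulates, and Dmp1 encodes an acidic matrix protein of late osteoblasts and osteocytes that takes part in mineral growth and phosphate control. In bone formation, Runx2 and Sp7 commit cells to the osteoblast lineage, collagen and alkaline phosphatase follow, and osteocalcin marks a late step. Osteoblasts buried in their matrix become osteocytes, which make sclerostin and other signals. Osteosarcomas are defined by tumour cells that lay down bone matrix, and they differ in how far along this course their cells are.

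The regulatory stretches of Bglap, Dmp1 and Spp1 are shown because the first 2 set the groups and the third, osteopontin, was the bone matrix gene with the smallest p-value outside the score. Ackr4 is shown because it had the smallest p-value of all genes. Each stretch is the 250 bases before the start site, from RefSeq on GRCm38.p6 and written 5′ to 3′ on the gene's strand. Capitals mark matches to the Runt core, the site of Runx2 (TGTGGT or TGCGGT on either strand, so ACCACA or ACCGCA as read here). The stretches lie at chr3:88384467-88384716 on the minus strand (Bglap), chr5:104202367-104202616 on the plus strand (Dmp1), chr5:104434861-104435110 on the plus strand (Spp1) and chr9:104126644-104126893 on the minus strand (Ackr4).
Bglap: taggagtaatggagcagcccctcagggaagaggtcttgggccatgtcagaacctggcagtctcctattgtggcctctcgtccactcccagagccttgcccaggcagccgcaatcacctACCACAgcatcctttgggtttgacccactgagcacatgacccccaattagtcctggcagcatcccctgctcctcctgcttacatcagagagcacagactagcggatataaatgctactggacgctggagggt
Dmp1: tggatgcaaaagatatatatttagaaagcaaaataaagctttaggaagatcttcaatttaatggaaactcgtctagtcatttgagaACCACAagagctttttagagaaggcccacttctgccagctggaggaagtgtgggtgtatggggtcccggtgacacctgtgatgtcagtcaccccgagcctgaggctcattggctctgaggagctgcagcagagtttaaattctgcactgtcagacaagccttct
Spp1: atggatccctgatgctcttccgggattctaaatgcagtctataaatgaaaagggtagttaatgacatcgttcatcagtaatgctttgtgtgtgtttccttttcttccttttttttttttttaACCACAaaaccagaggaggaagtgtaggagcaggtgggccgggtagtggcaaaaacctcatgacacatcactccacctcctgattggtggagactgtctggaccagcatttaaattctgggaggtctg
Ackr4: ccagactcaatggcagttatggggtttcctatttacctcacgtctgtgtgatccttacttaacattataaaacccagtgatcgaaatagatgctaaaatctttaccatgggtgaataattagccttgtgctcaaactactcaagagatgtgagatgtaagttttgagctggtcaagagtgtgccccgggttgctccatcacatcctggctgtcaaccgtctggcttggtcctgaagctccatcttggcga
The match begins at base -132 from the start site in Bglap, -164 in Dmp1 and -128 in Spp1, and there is none in the Ackr4 stretch. Dmp1 and Spp1 each have 2 start sites in the table, and the printed stretch belongs to the one with a match. In the full windows of 300 bases, which add 50 bases after the start site, 6764 of 27025 genes (25.0%) held a match in at least 1 window. Of the tested bone genes 29 of 116 with a window held a match (25.0%), and of those with an unadjusted p under 0.05 in the comparison below 8 of 23 did (34.8%). These are counts of letters and carry no test.

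Bglap ranged from 74.8 to 554 CPM in the high tumours (median 130) and from 1.42 to 13.1 CPM in the low tumours (median 3.21). Bglap2 ranged from 91.5 to 1107 CPM (median 192) against 3.87 to 29.3 CPM (median 6.31). Dmp1 overlapped between the groups, at 61.3 to 416 CPM (median 233) against 4.28 to 84.0 CPM (median 29.3). The osteocalcin genes did not overlap between the groups, which the rule all but fixes, and Dmp1 did. The score ran from 6.36 to 9.28 in the high tumours (median 7.32) and from 2.45 to 4.77 in the low tumours (median 3.39). It was highest in p53fl/fl 1979 and lowest in p53R245W/fl 1827. The last tumour inside the high group was p53R245W/fl 1818 at 6.36, and p53fl/fl 1522 at 6.23 was the first outside it. The last inside the low group was p53R172H/fl 1441 at 4.77, and p53fl/fl 1427 at 4.87 was the first outside it. The score formed a slope without a gap at either edge. All 3 genotypes spanned it, from 2.80 to 9.28 in 10 p53fl/fl tumours, from 3.10 to 7.57 in 13 p53R172H/fl tumours and from 2.45 to 8.31 in 8 p53R245W/fl tumours.

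**Figure D1:**
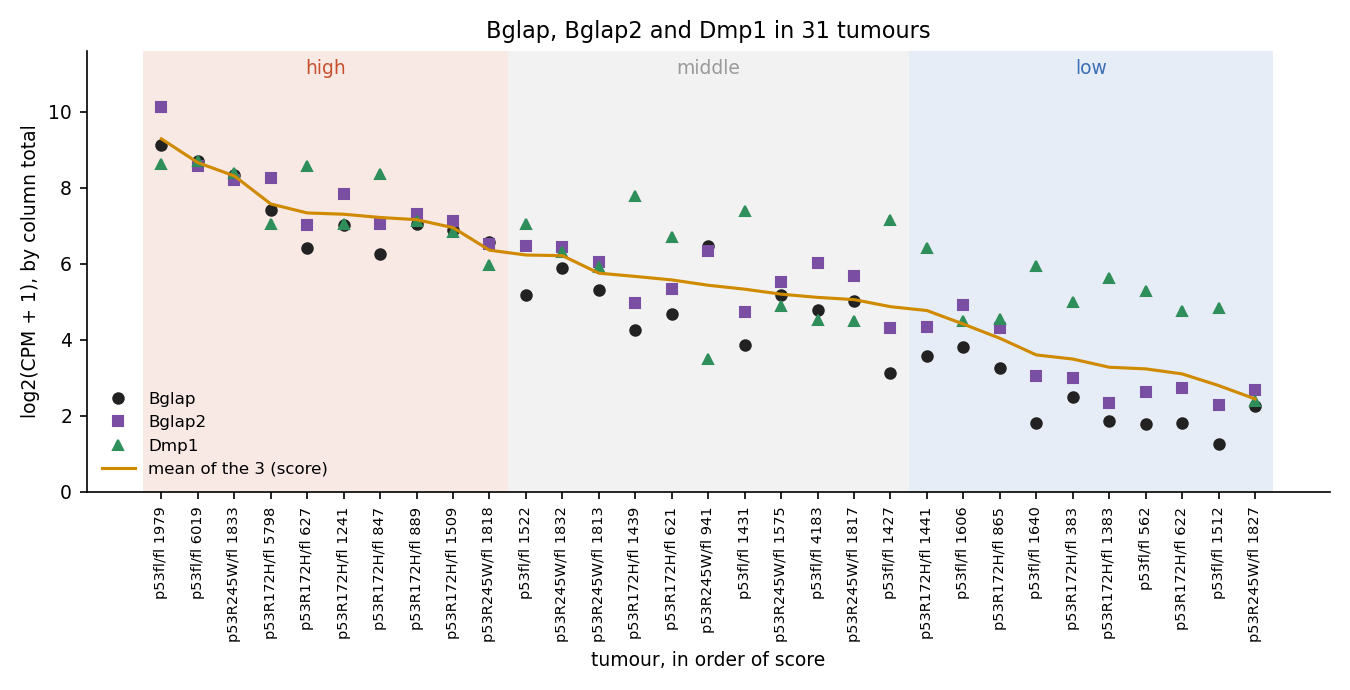
Level of the 3 score genes as log2(CPM + 1) on the y axis in each of the 31 tumours, ordered by score from left to right. Points are single libraries, the line is the score, and shading marks the 10 high, 11 middle and 10 low tumours. Dmp1 exceeds both osteocalcin genes in 8 of 10 low, 5 of 11 middle and 4 of 10 high tumours.

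Several facts of the libraries are given here by group. Total counts ran from 41499637 to 58650111 in the high and from 42828952 to 58750531 in the low tumours, and the ranges overlapped. Column names place the libraries in sets, and 4 high and 8 low tumours were in set A (prefixes FM, FNM, WFM and WFNM) and 6 high and 2 low tumours in set C (prefix R553). Set and score group are thus partly aligned. With set as a further covariate, 4.81% of all genes were higher and 5.08% lower at an unadjusted p under 0.05, which is the background of the counts with set given below. Counts at loci annotated as TEC or sense intronic made up 0.184% to 0.358% of a high library and 0.144% to 0.529% of a low one. In 4 of the 20 high and low libraries both the X-inactivation RNA Xist and the Y-linked Ddx3y exceeded 10 CPM. Among them were p53R172H/fl 627 (715 and 76.6 CPM) and p53fl/fl 1512 (121 and 70.7 CPM), with p53R172H/fl 1241 and p53fl/fl 562 at lower levels. Tumours 627 and 1241 are high, and tumours 1512 and 562 are low. Of the middle tumours, p53R172H/fl 1439, p53R245W/fl 1813, p53R245W/fl 1817 and p53fl/fl 1522 also exceeded 10 CPM of both. They stayed in every fit that used the middle tumours. Trp53 itself ranged from 11.7 to 40.5 CPM in the high and from 10.1 to 47.9 CPM in the low tumours, with a log2 difference of -0.20 ± 0.15 (SE).

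Collagen and osteoblast RNA was present in all 20 tumours. Col1a1 ranged from 44054 to 91261 CPM in the high tumours (median 64432) and from 18418 to 62150 CPM in the low tumours (median 32414), with CPM from here on scaled by TMM, a correction of library sizes. Col1a1 entered the choice of tumours and so is given without a test. Runx2 was between 123 and 284 CPM in every tumour of both groups. The low tumours held osteoblast-lineage RNA beside little osteocalcin RNA, but the rule set their low osteocalcin and their Col1a1 minimum. Of these values only those of Runx2 did not enter the choice. In bulk RNA, fewer cells of a type and less RNA per cell cannot be told apart.

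Outside the score genes, 2 genes passed the test between high and low tumours, and both were higher in the high tumours. With edgeR's quasi-likelihood test and Benjamini-Hochberg adjustment over 17647 genes, they were Ackr4 and Sorbs2 (0.0113% of genes called higher, 0% called lower). At an unadjusted p under 0.05, 1105 genes were higher (6.26%) and 1208 were lower (6.85%). DESeq2 on the same 20 libraries called 136 genes higher (0.771%) and 95 lower (0.538%), and limma voom with quality weights called 10. Nearly all that follows on single bone genes is therefore below the threshold of edgeR, and its values are given as such.

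Ackr4 (ENSMUSG00000079355.4, chr9:104084157-104126933, minus strand, GRCm38) encodes an atypical receptor that takes up chemokines without signalling through G proteins. Its level was 7.08 to 51.2 CPM in the high tumours (median 33.2), 5.47 to 73.9 CPM in the 11 middle tumours (median 11.01) and 1.55 to 11.8 CPM in the low tumours (median 3.64). Its log2 difference was 2.66 ± 0.41 (SE, adjusted p = 0.0283). Of the high tumours, 8 lay above every low tumour, and the other two were p53R172H/fl 627 and p53R172H/fl 1241, both of which held Xist and Ddx3y RNA (7.08 and 9.98 CPM of Ackr4). Without the 4 libraries that held both, the difference was 2.72 with an edgeR adjusted p of 0.00483. That subset was chosen after seeing the data and drops both high tumours that overlapped the low ones. Its smaller p is therefore no further support for Ackr4. Sorbs2 (ENSMUSG00000031626.17, chr8:45507788-45827906, plus strand) encodes an adaptor protein of the actin cytoskeleton and cell junctions. It was 45.5 to 85.8 CPM in the high tumours (median 67.2), 5.47 to 145 CPM in the middle tumours (median 36.2) and 15.3 to 46.7 CPM in the low tumours (median 29.6). Its log2 difference was 1.22 ± 0.19 (SE, adjusted p = 0.0283), and p53R172H/fl 622 was the low tumour that reached above p53R245W/fl 1833, the lowest high tumour. Without the 4 libraries its edgeR adjusted p was 0.0742.

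Neither call held in all subsets. Leaving out 1 tumour at a time ended the call of Ackr4 in 12 of 20 cases and that of Sorbs2 in 11 of 20, with edgeR adjusted p-values up to 0.133 for both, while the log2 differences stayed between 2.53 and 2.86 and between 1.15 and 1.34. With library set as a further covariate the differences were 2.71 and 1.25 with an edgeR adjusted p of 0.104 for each, and no gene was called. The only gene whose high tumours all exceeded all low tumours was Abhd15, a protein of the alpha/beta-hydrolase family (0.00567% of genes, against 0% in the opposite direction). It was 13.8 to 34.02 CPM in the high tumours (median 18.7) and 3.03 to 13.5 CPM in the low tumours (median 8.67), and its edgeR adjusted p was 0.119.

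**Figure D2:**
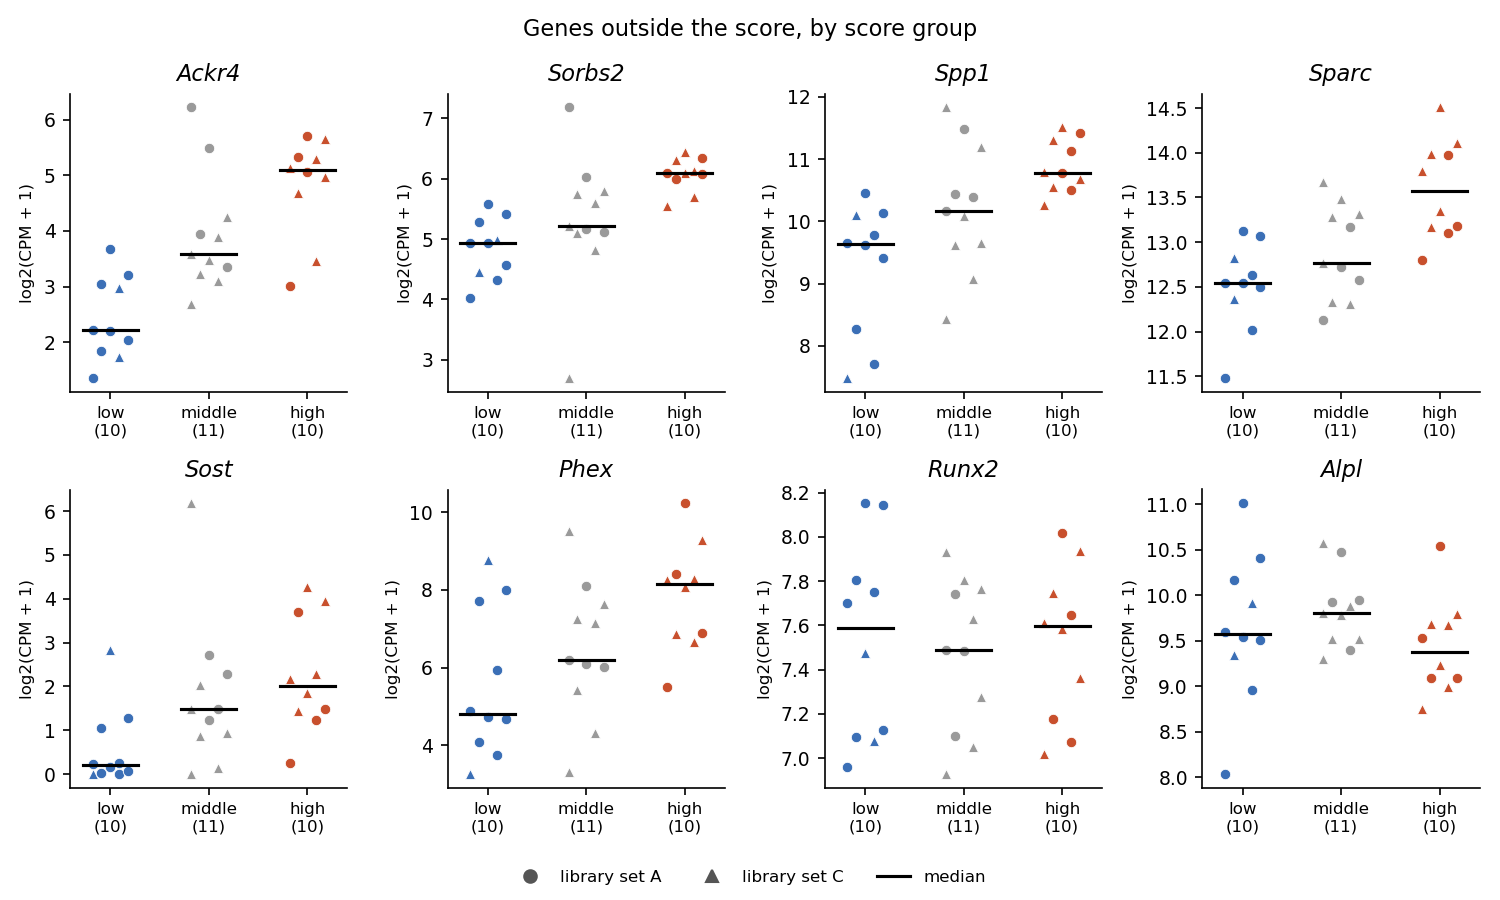
Level of 8 genes as log2(CPM + 1) on the y axis in the 10 low, 11 middle and 10 high tumours. Points are tumours, circles are library set A, triangles are library set C and bars are medians. The called genes Ackr4 and Sorbs2 have 8 and 9 high tumours above all low ones. Spp1 and Sparc, which were not called, have 9 and 8, and Runx2 has medians of 193 and 192 CPM in the high and low tumours and Alpl of 668 and 758 CPM.

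The bone genes outside the score were read in 7 lists, from lineage regulators to hormone receptors, with 160 genes tested. None passed edgeR's threshold. At an unadjusted p under 0.05, 28 of 160 were higher in the high tumours, against 6.26% of all genes, and 4 of 160 were lower, against 6.85%. The median log2 difference over the 160 was 0.12, and over all genes it was -0.03. Leaving out single tumours moved the higher count to between 20 and 29, the lower count to between 2 and 9 and the median to between 0.06 and 0.18. The lower count was 9 without p53R172H/fl 5798 and 2 without any of p53R172H/fl 1383, 383, 865, 1509 and 889 and p53fl/fl 6019, and the lowest median was without p53R245W/fl 1827 and the highest without p53R172H/fl 383. Over all genes, the fits without 1 tumour gave 738 to 1252 higher and 737 to 1415 lower at that level. This is the background of all counts without single tumours given below. DESeq2 called 9 bone genes higher (Col1a2, Spp1, Sparc, Dcn, Enpp1, Fam78b, Bmp1, Loxl3 and Adamts2) and 0 lower. With library set as a covariate all 32 genes with an unadjusted p under 0.05 kept their direction, and 19 of them had an unadjusted p under 0.05. In that fit 22 of the 160 were higher and 1 lower. Without the 4 libraries with both sex-linked RNAs the counts were 24 higher and 4 lower, against 5.9% and 4.4% of all genes in that fit.

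Of 25 lineage regulators tested, 8 had a positive difference, 1 was higher and 1 lower at an unadjusted p under 0.05, and the median was -0.12. Runx2, which commits cells to the osteoblast lineage, had medians of 193 and 192 CPM and a log2 difference of -0.04 ± 0.20 (SE). Sp7, which acts after Runx2, was 147 to 301 CPM in the high and 88.1 to 308 CPM in the low tumours, with a difference of 0.27 ± 0.23. Dlx5, a homeobox regulator of osteoblasts, had a difference of -0.23 ± 0.32. Atf4, a stress-responsive factor that acts on the osteocalcin promoter, had medians of 212 and 178 CPM and a difference of 0.43 ± 0.14 (edgeR adjusted p = 0.260). Hey1, a Notch target, had a difference of -0.55 ± 0.25 (edgeR adjusted p = 0.360). These values do not show that Runx2 and Sp7 were equal in the groups.

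Of 26 non-collagen matrix genes, 5 were higher and 0 lower at an unadjusted p under 0.05 (median 0.28), and of 16 collagens 3 were higher and 0 lower (median 0.12). Without p53R172H/fl 5798 both medians were negative, at -0.08 and -0.09, and in the R1002 libraries they were -0.07 and -0.01 per score unit. In the R1002 libraries 8 of 27 and 2 of 16 were higher and 2 and 1 lower at that level, against 6.02% and 5.37% of all genes. The medians were 0.35 and 0.34 with library set as a covariate, and 0.26 and 0.33 per score unit in the middle tumours. Spp1, osteopontin, ranged from 1226 to 2925 CPM in the high tumours (median 1759) and from 177 to 1395 CPM in the low tumours (median 793). Its log2 difference was 1.51 ± 0.33 (SE, edgeR adjusted p = 0.143), and 9 of 10 high tumours exceeded all low tumours. Sparc, osteonectin, ranged from 7156 to 23359 CPM (median 12317) against 2852 to 8904 CPM (median 5972), with a difference of 1.02 ± 0.23 (edgeR adjusted p = 0.143). For Sparc 8 of 10 high tumours lay above all low tumours.

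Decorin and lumican are small proteoglycans that order collagen fibrils. Dcn ranged from 167 to 982 CPM in the high tumours (median 408) and from 15.9 to 468 CPM in the low tumours (median 101), a difference of 2.08 ± 0.53 (edgeR adjusted p = 0.183). Lum had a difference of 1.92 ± 0.80 (edgeR adjusted p = 0.339), with p53fl/fl 1979, the tumour of the highest score, at 8.72 CPM and the next high tumour at 86.1 CPM. Col1a2, which pairs with Col1a1 in bone collagen, had medians of 55755 and 32750 CPM and a difference of 0.83 ± 0.25 (edgeR adjusted p = 0.233).

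Other mineral-associated matrix genes overlapped widely. Ibsp, bone sialoprotein, is a neighbour of Dmp1 and Spp1 on chromosome 5 and had 1460 to 4475 CPM in the high tumours (median 2553) and 566 to 3871 CPM in the low tumours (median 1565), a difference of 0.42 ± 0.37 (edgeR adjusted p = 0.649). Mepe, another neighbour and an osteocyte protein, had a fitted difference of -0.09 ± 1.23. All 10 high tumours lay above the low median of 0.558 CPM, yet the highest level of all was in a low tumour, p53fl/fl 1512, at 126 CPM. Mgp, an inhibitor of mineralisation, had a difference of -0.03 ± 0.32, and Ifitm5, an osteoblast membrane protein, of 0.36 ± 0.42. Bglap3, a near copy of the osteocalcin genes, had medians of 2.98 and 0.952 CPM and a difference of 1.58 ± 0.60. Reads of Bglap, Bglap2 and Bglap3 could be assigned among the copies in the counting, so this value is uncertain.

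Alpl, the alkaline phosphatase that frees phosphate for mineral, was 430 to 1493 CPM in the high tumours (median 668) and 261 to 2064 CPM in the low tumours (median 758), a difference of -0.32 ± 0.31 (edgeR adjusted p = 0.679). Phospho1, a phosphatase of matrix vesicles, had medians of 18.5 and 18.2 CPM. Enpp1, which makes the mineral inhibitor pyrophosphate, ranged from 41.5 to 154 CPM (median 71.5) against 20.6 to 61.4 CPM (median 30.7), a difference of 1.12 ± 0.27 (edgeR adjusted p = 0.175). Every high tumour exceeded the low median of Enpp1, and 5 exceeded all low tumours. The middle tumours had a median of 80.5 CPM, above that of the high tumours. Slc20a1, a phosphate transporter, had medians of 60.4 and 86.7 CPM and a difference of -0.54 ± 0.23 (edgeR adjusted p = 0.337). Over the list, 3 of 26 genes were higher and 1 lower at an unadjusted p under 0.05, with a median of 0.08, or -0.01 without p53R245W/fl 1827.

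The osteocyte list had the highest median of the bone lists, 0.50 over 22 tested genes, with 17 positive. At an unadjusted p under 0.05, 7 were higher and 0 lower, and leaving out single tumours gave 4 to 7 higher, with 4 without p53R172H/fl 1509. With library set as a covariate 4 were higher and 0 lower, and the median was 0.58. In the middle tumours the sign was the opposite, with a median of -0.14 per score unit and 0 of 23 higher or lower. Phex, a membrane peptidase of osteocytes that controls phosphate, ranged from 44.4 to 1201 CPM in the high tumours (median 285) and from 8.58 to 434 CPM in the low tumours (median 26.9), a difference of 1.88 ± 0.78 (edgeR adjusted p = 0.339). Sost, which encodes the Wnt inhibitor sclerostin, was scarce, at 0.186 to 18.2 CPM (median 3.07) against 0 to 6.10 CPM (median 0.151), a difference of 2.90 ± 1.16 (edgeR adjusted p = 0.321). Each high tumour lay above the low median for both genes, while 2 exceeded all low tumours for Phex and 3 for Sost. Dkk1, a second secreted Wnt inhibitor, had medians of 12.4 and 1.68 CPM and a difference of 2.06 ± 0.92 (edgeR adjusted p = 0.357). Fam78b (49.7 against 17.7 CPM at the median) and Ptprz1 (147 against 40.1 CPM), a receptor phosphatase, had differences of 1.65 ± 0.46 and 1.24 ± 0.47. The gap junction gene Gja1 had medians of 402 and 232 CPM. Podoplanin, Pdpn, an early osteocyte marker, had medians of 12.98 and 22.7 CPM and a difference of -0.34 ± 0.59.

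Of 30 genes that fold, trim and cross-link collagen, 25 had a positive difference, and 8 were higher and 0 lower at an unadjusted p under 0.05. The median was 0.31, and the count was 4 without p53R172H/fl 383, 5 without any of p53R172H/fl 627, p53R245W/fl 1827, p53R245W/fl 1818, p53fl/fl 1606, p53fl/fl 1979 and p53fl/fl 6019, and at most 10. Adamts2, which cleaves the amino end of procollagen, ranged from 289 to 732 CPM in the high tumours (median 504) and from 110 to 416 CPM in the low tumours (median 226), with 7 high tumours above all low ones and a difference of 0.93 ± 0.23 (edgeR adjusted p = 0.176). Bmp1, which cleaves the carboxyl end, had medians of 943 and 333 CPM and a difference of 1.09 ± 0.30 (edgeR adjusted p = 0.208), with p53R172H/fl 865 as a low tumour at 988 CPM. Loxl3, a lysyl oxidase, had medians of 161 and 84.8 CPM and a difference of 0.97 ± 0.27 (edgeR adjusted p = 0.206). Plod2, which hydroxylates lysines of the collagen ends, had medians of 410 and 200 CPM and a difference of 0.85 ± 0.26 (edgeR adjusted p = 0.233).

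Among 19 receptors and mineral hormones, 3 were higher and 2 lower at an unadjusted p under 0.05, with a median of 0.08. With library set as a covariate 1 was higher and 0 lower, with a median of 0.01. Vdr, the vitamin D receptor, which acts on the osteocalcin gene, had medians of 106 and 35.5 CPM and a difference of 0.97 ± 0.37 (edgeR adjusted p = 0.301). The high tumour p53R245W/fl 1818 stood at 25.0 CPM. Esr1, an oestrogen receptor, had medians of 44.3 and 21.2 CPM and a difference of 0.84 ± 0.32 (edgeR adjusted p = 0.302). Igf1r, the receptor of insulin-like growth factors, had medians of 42.5 and 99.5 CPM and a difference of -0.99 ± 0.37 (edgeR adjusted p = 0.299), and no high tumour reached the low median.

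**Figure D3:**
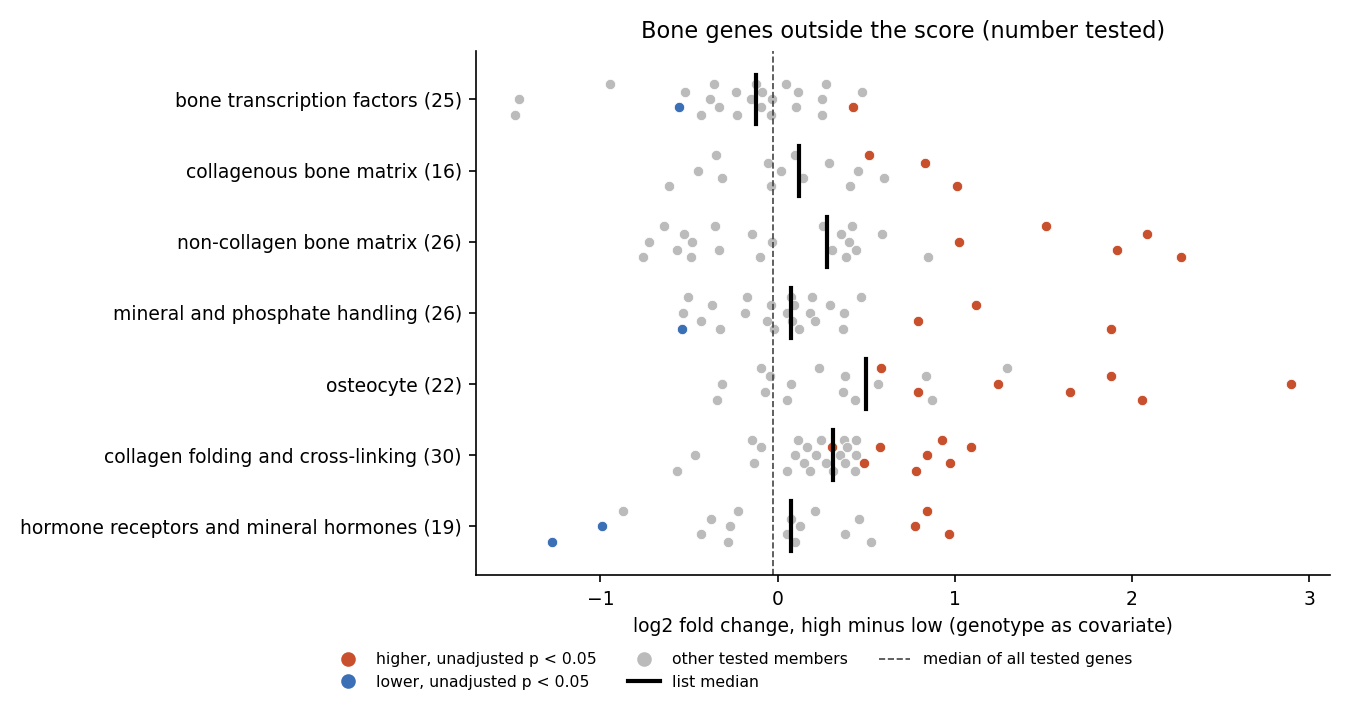
Log2 fold change of high minus low tumours on the x axis for each tested gene of the 7 bone lists, with list names and gene numbers on the y axis. Colour marks an unadjusted p under 0.05, black bars are list medians and the dashed line is the median of all genes. The osteocyte list has a median of 0.50 and the lineage regulators of -0.12.

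In TGF-beta and BMP signalling, 5 of 44 genes were higher and 3 lower at an unadjusted p under 0.05, with a median of -0.03. Its most abundant genes, Fstl1 and Bmpr2, had differences of -0.21 ± 0.38 and -0.03 ± 0.14. Bmp3, like the other signalling genes named here apart from the most abundant ones, was chosen after its values were seen. Bmp3, a BMP that opposes bone formation, had medians of 147 and 71.1 CPM and a difference of 1.66 ± 0.46 (edgeR adjusted p = 0.213). In Wnt signalling 3 of 39 were higher and 2 lower, among them Sfrp4, a secreted inhibitor, with medians of 68.7 and 19.3 CPM and a difference of 1.57 ± 0.48 (edgeR adjusted p = 0.233). The most abundant Wnt genes, the co-receptors Lrp4 and Lrp6, had differences of 0.28 ± 0.24 and -0.21 ± 0.15. In Notch and Hedgehog signalling 0 of 22 were higher and 4 lower, including the Hedgehog pathway genes Gli2 (21.7 against 39.04 CPM at the median) and Ptch1 (41.1 against 65.4 CPM), with differences of -0.97 ± 0.33 and -0.88 ± 0.31. The receptors Notch2 and Notch3 had differences of -0.10 ± 0.26 and -0.24 ± 0.20. Among 14 signals for osteoclasts 1 was higher and 1 lower. Csf1, a growth factor of the osteoclast lineage, had a difference of 0.00 ± 0.33 and Tnfrsf11b, the decoy receptor osteoprotegerin, of -1.85 ± 0.87 (edgeR adjusted p = 0.377). Cxcl12, a chemokine of bone marrow stroma, had medians of 60.5 and 23.0 CPM and a difference of 1.92 ± 0.64 (edgeR adjusted p = 0.261).

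Of 26 mitosis genes 0 had a positive difference, 15 were lower at an unadjusted p under 0.05, and the median was -0.56. Their summed level was 879 to 2207 CPM in the high tumours (median 1411) and 985 to 3408 CPM in the low tumours (median 1925), so the groups overlapped. Mki67, the proliferation antigen, was 125 to 402 CPM against 138 to 719 CPM (medians 211 and 291), a difference of -0.69 ± 0.27 (edgeR adjusted p = 0.306). Hjurp, a chaperone of centromere histones, had a difference of -0.29 ± 0.19. Bub1b, a spindle checkpoint kinase chosen after its values were seen, had medians of 47.3 and 74.6 CPM and a difference of -0.73 ± 0.20 (edgeR adjusted p = 0.206). Of 26 DNA replication genes 0 were positive and 16 were lower, with a median of -0.52. Mcm6 and Rrm1, of the replicative helicase and of nucleotide reduction, had differences of -0.44 ± 0.20 and -0.13 ± 0.16. Pola1, a subunit of the polymerase that starts new strands, also chosen after its values were seen, had medians of 36.1 and 54.3 CPM and a difference of -0.52 ± 0.15 (edgeR adjusted p = 0.219). None of the 52 genes passed the threshold. Leaving out single tumours gave 9 to 19 lower mitosis genes, with 9 without p53R172H/fl 1509, without p53R172H/fl 622 and without p53R245W/fl 1827, and 10 to 17 lower replication genes, with 10 without p53R172H/fl 1441. Without the 4 libraries with both Xist and Ddx3y the counts were 8 mitosis and 12 replication genes, against 4.4% of all genes lower in that fit. With library set as a covariate they were 13 and 16. In the middle tumours the medians per score unit were -0.03 and 0.01.

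Hypoxia and glycolysis genes had a median of -0.44 over 24 genes, with 9 lower and 0 higher at an unadjusted p under 0.05. Pkm, pyruvate kinase, had medians of 934 and 1259 CPM and a difference of -0.44 ± 0.17 (edgeR adjusted p = 0.316), and Aldoa, aldolase, a difference of -0.44 ± 0.24. Slc2a1, Vegfa and Ldha were chosen after their values were seen. Slc2a1, a glucose transporter, had medians of 23.4 and 37.3 CPM and a difference of -1.08 ± 0.32 (edgeR adjusted p = 0.228). Vegfa, the vessel growth factor, had medians of 73.2 and 134 CPM and a difference of -0.75 ± 0.24 (edgeR adjusted p = 0.255). Ldha, lactate dehydrogenase, had a difference of -0.18 ± 0.28. Of 30 nuclear genes of oxidative phosphorylation, 0 were higher or lower at that level, with a median of 0.09. Without p53R245W/fl 1827, the only low tumour of its genotype, the count of lower hypoxia genes was 5. The count was also 5 with library set as a covariate.

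Values for markers of other cell types are given next, and their share in the differences above was not tested. Osteoclasts resorb bone and come from blood-forming cells. Their 18 markers summed to 1350 to 12625 CPM in the high tumours (median 6708) and 801 to 15979 CPM in the low tumours (median 1375). Each of the 18 had a positive difference, with a median of 1.06, and 1 (Ostm1) was higher at an unadjusted p under 0.05. Ostm1, Acp5 and the neutrophil gene Ngp are named here by a choice made after seeing their values. The low tumour with the highest sum was p53R245W/fl 1827, the only low tumour of its genotype. Leaving out single tumours gave 1 to 15 of 18 higher at that level and medians of 0.86 to 1.66. The count of 15 and the median of 1.66 were both without p53R245W/fl 1827. That tumour goes most against the difference, so these 2 values are no further support for it. With library set as a covariate 1 of the 18 was higher, and their median was 0.89. Mmp9, a gelatinase and the most abundant of them, had medians of 2340 and 487 CPM and a difference of 1.01 ± 0.70. Acp5, the osteoclast acid phosphatase, had medians of 1554 and 203 CPM and Ctsk, the collagen-degrading cathepsin, of 1559 and 419 CPM, with differences of 1.64 ± 0.80 and 1.26 ± 0.63. In the middle tumours the osteoclast median per score unit was -0.96.

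Neutrophil markers summed to 12.1 to 391 CPM in the high tumours (median 25.1) and 9.88 to 24.6 CPM in the low tumours (median 17.1). Of 12 tested, 8 were higher at an unadjusted p under 0.05, with a median of 2.42, but with set as a covariate 0 were higher and the median was 0.77, and within set A the median was -0.20. The highest sums, 391, 277 and 104 CPM, were in p53R245W/fl 1833, p53R172H/fl 889 and p53R172H/fl 1509, all of set C. Ngp, a granule protein, was 0 to 1.46 CPM in the low and 0.146 to 48.5 CPM in the high tumours. T and NK cell markers summed to 14.8 to 92.9 CPM against 17.2 to 68.8 CPM, and 5 of 17 were higher, or 1 of 18 without the 4 libraries with both sex-linked RNAs. Leaving out p53fl/fl 1979 also gave 1, and with set as a covariate 3 were higher. Macrophage markers summed to 1725 to 3360 CPM against 535 to 3400 CPM, with 2 of 19 higher. Skeletal muscle markers reached 48259 CPM in the low tumour p53R172H/fl 1383. The muscle median was -1.27 with 2 of 25 lower, and -0.35 without that tumour. Leaving out single tumours gave 0 to 12 lower, with 12 without p53fl/fl 1512. In the 11 middle tumours the sign was the opposite, with a median of 2.28 per score unit and 24 of 25 higher at an unadjusted p under 0.05, against 2.65% of all genes higher and 2.04% lower there. For interferon response genes the median was 0.54, and -0.54 without the 4 libraries with both sex-linked RNAs, with 0 of 22 higher or lower in both cases. B cell markers had 1 of 7 higher, erythroid markers 2 of 13, adipocyte markers 1 of 11 and Schwann and neural markers 1 of 10, with 0 lower in each. With set as a covariate the erythroid median went from 0.27 to -0.44 and the adipocyte median from 0.57 to -0.06, with 0 higher in both lists. Endothelial markers had 0 of 18 higher or lower and a median of -0.05, and mural markers 1 of 13 higher and 0 lower. Keratinocyte markers had 0 of 7 higher and 1 lower. Cartilage markers had 1 of 14 higher and 1 lower, with summed levels of 770 to 8342 CPM in the high and 261 to 5006 CPM in the low tumours. Tendon and fibroblast markers had 3 of 17 higher and 1 lower, and early stromal markers 1 of 29 higher and 1 lower. Of 32 p53 target genes 1 was higher and 1 lower, with a median of 0.08. Of 29 matrix proteases and inhibitors 3 were higher and 1 lower (1 and 0 with set as a covariate), of 29 growth ligands 1 and 2, and of 34 genes tied to osteosarcoma 1 and 7. In this last list the median was -0.28, and 7 of 34 genes had a positive difference. Ccnd2, a cyclin of that list, went against most of it, with medians of 408 and 95.7 CPM and a difference of 1.30 ± 0.49 (edgeR adjusted p = 0.300).

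**Figure D4:**
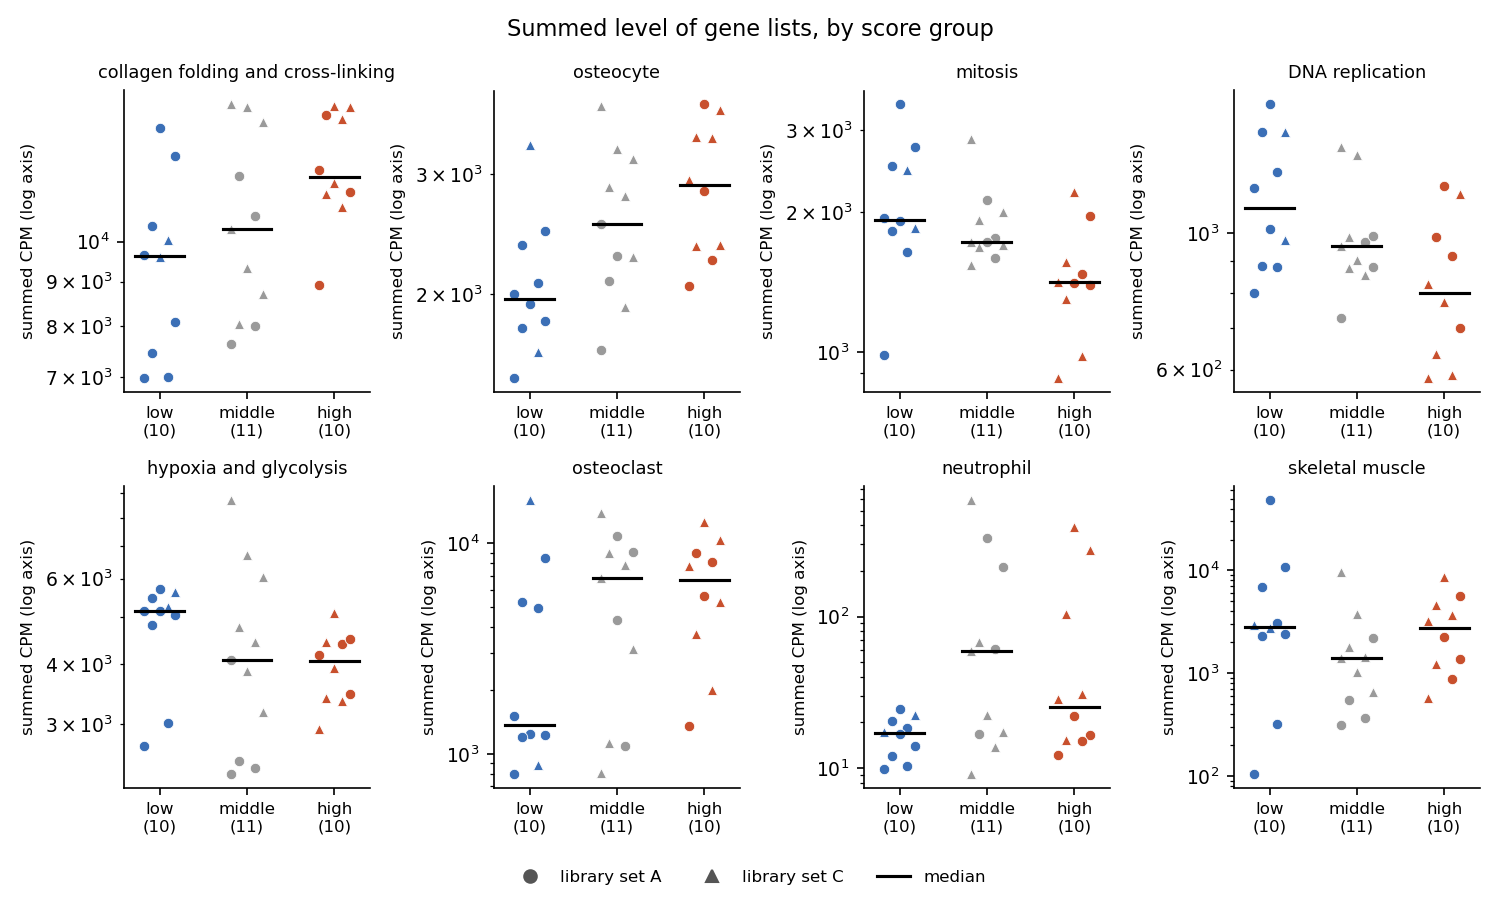
Summed CPM (log axis) of 8 gene lists in the 10 low, 11 middle and 10 high tumours, with a point per tumour, circles for set A, triangles for set C and bars for medians. The groups overlap in every panel. The mitosis medians are 1925 CPM in the low and 1411 CPM in the high tumours, and the osteoclast medians are 1375 and 6708 CPM.

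Using the score as a continuous measure over all 31 tumours, with genotype as covariate, edgeR called 37 of 20156 genes higher with the score (0.184%) and 14 lower (0.0695%). Of the bone genes, Sparc and Loxl3 were called. Sparc rose by 0.25 ± 0.05 log2 units per score unit (edgeR adjusted p = 0.0320) and Loxl3 by 0.26 ± 0.05 (edgeR adjusted p = 0.0340). These 31 include the 20 tumours above. Ackr4 was also called, at 0.58 ± 0.12 (edgeR adjusted p = 0.0378), and Sorbs2 was not, at 0.26 ± 0.07 (edgeR adjusted p = 0.0819). The following genes were chosen after their values were seen. Chst11, a chondroitin sulfotransferase, rose by 0.26 ± 0.04 (edgeR adjusted p = 0.0159), and it was 57.5 to 189 CPM in the high and 29.5 to 60.7 CPM in the low tumours. Tbx2, a T-box repressor, rose by 0.24 ± 0.04, and Fap, a protease of activated fibroblasts, by 0.30 ± 0.07 (edgeR adjusted p = 0.0380). Mrc2, a receptor that takes up collagen fragments, rose by 0.21 ± 0.04 (edgeR adjusted p = 0.0364) and Insig1, a brake on sterol synthesis, by 0.23 ± 0.05 (edgeR adjusted p = 0.0320). Hdgf, a nuclear growth factor, fell by 0.20 per unit (edgeR adjusted p = 0.0159), with 88.5 to 210 CPM in the high and 175 to 478 CPM in the low tumours. E2f8, a repressor of the cell cycle's E2F targets, fell by 0.22 (edgeR adjusted p = 0.0378). With library set as a further covariate 16 genes were called, among them Chst11, Tbx2, Hdgf, Loxl3 and Ackr4. Sparc (edgeR adjusted p = 0.0762), Fap (0.127), Mrc2 (0.0539), Insig1 (0.0596) and E2f8 (0.0930) were not among them.

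The 11 middle tumours were not in the comparison of high with low and span a score of 4.87 to 6.23. In edgeR's test on them alone with the score as a continuous measure, 0 genes were called and 933 had an unadjusted p under 0.05. Of the 2313 genes with an unadjusted p under 0.05 between high and low, 1122 (48.5%) had the same direction, against 47.5% of all genes tested in both. Of the 32 bone genes with an unadjusted p under 0.05, 21 had the same direction and 11 the opposite. Loxl3 (1.19 per unit) and Enpp1 (1.44) had the same direction and Slc20a1 (0.59) the opposite at an unadjusted p under 0.05 there. Spp1 had 0.01 ± 0.67 per unit and Sparc 0.14 ± 0.41. Sost (-0.21) and Matn4 (-0.95) had the opposite sign to the difference of high and low. Ackr4 was at -0.28 ± 0.96 and Sorbs2 at 0.84 ± 0.69. The score spans a narrow range among these 11, and the errors are wide beside the values.

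**Figure D5:**
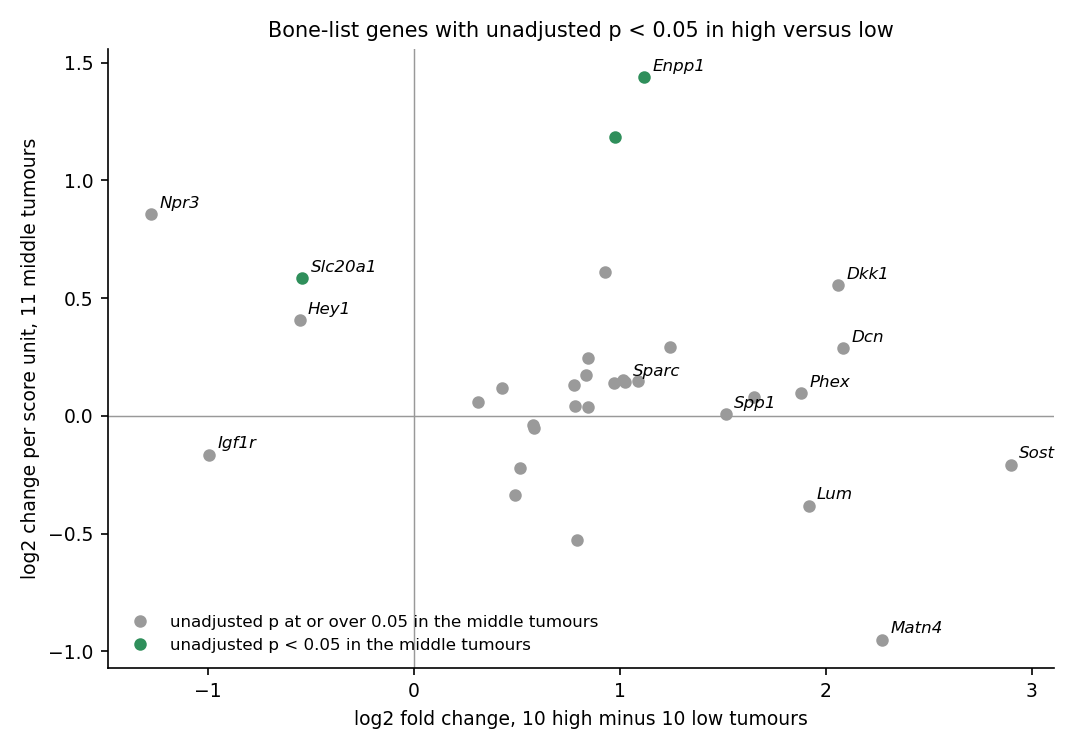
For the 32 bone genes with an unadjusted p under 0.05, the log2 fold change of 10 high minus 10 low tumours (x axis) and the log2 change per score unit in the 11 middle tumours (y axis). Points are genes, green where the unadjusted p in the middle tumours is under 0.05. Of the 32, 21 have the same sign on both axes and 11 the opposite.

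The 18 libraries with the prefix R1002 were not used to form the groups. Each was most like 1 library without the prefix, of its own genotype, in the ranks of gene levels (Spearman rho of 0.616 to 0.910, with the next best at most 0.498), and all 18 matches were distinct. They were therefore not counted as independent tumours. Of these, 16 passed the Col1a1 limit, and their matches were 4 high, 5 low and 7 middle tumours. With the score as a continuous measure edgeR called 0 genes in them, and at an unadjusted p under 0.05 1179 were higher (6.02%) and 1050 lower (5.37%). Their values for single genes stand beside those above. Ackr4 had 0.77 ± 0.20 per score unit, Sorbs2 0.28 ± 0.12, Spp1 0.40, Sparc 0.28, Phex 0.66, Dcn 0.53 and Runx2 -0.04. For osteoclast markers the median was 0.63 per unit with 18 of 18 higher at an unadjusted p under 0.05, for mitosis genes it was -0.14 with 9 of 26 lower, and for the osteocyte list it was 0.15 with 5 of 23 higher. Adipocyte markers had 10 of 14 higher (median 0.57) and oxidative phosphorylation genes 8 of 30 (median 0.11), with 0 lower in each. Between high and low tumours these 2 lists had 1 of 11 and 0 of 30 higher.

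Whether the genotypes differed in how genes go with the score was asked with an interaction of score and genotype over the 31 tumours. All 8 p53R245W/fl tumours among them were in library set C, so genotype and set are partly aligned as well. Of 19237 genes edgeR called 1, Cstf2t (0.0052%, adjusted p = 0.0169), and 781 had an unadjusted p under 0.05. Cstf2t, a cleavage stimulation factor of RNA ends, had slopes of 0.09 per score unit in 13 p53R172H/fl, -0.50 in 8 p53R245W/fl and -0.07 in 10 p53fl/fl tumours. Its highest level over the 31 tumours, 133 CPM, was in p53R245W/fl 1827. Without that tumour 0 genes were called, and 593 had an unadjusted p under 0.05, while the p53R245W/fl slope was -0.52 in 7 tumours (edgeR adjusted p = 0.9999). No bone gene was called for a difference between genotypes.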

How the data were processed

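The data were stranded, paired-end mRNA sequencing of flash-frozen primary mouse osteosarcomas, per the labels' protocols. The deposited values were whole-number counts per gene that the authors made from reads aligned with STAR to GRCm38, per the submitters' processing notes. Their versions and the counting tool are not stated there. The table held 20730 genes, each with at least 260 counts in total, and 20668 matched GENCODE M21.

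Genes were tested with edgeR 4.0.16 (quasi-likelihood, TMM factors, a minimum count of 10 by filterByExpr, genotype as covariate) in R 4.3.3, and p-values were adjusted by Benjamini-Hochberg over all genes tested, with a threshold of 0.05. With edgeR and limma the score genes were left out before the adjustment, and Col1a1 was kept in it but left out of the gene lists. For DESeq2 its own adjusted p was used, which was made with the score genes included, and they were dropped afterwards. The scripts were tested on simulated data. Log2 differences are high minus low, with SE. DESeq2 1.42.0 and limma 3.58.1 were alternatives, as were other factors, filters, covariates and sets of libraries. The score with library set over 31 tumours, the interaction without 1 tumour, list counts without single tumours and the analysis without 4 libraries were chosen after seeing the data.

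The members, the 35 gene lists and the tests were chosen with earlier results of these data known. Named genes were the called genes, members of the 7 bone lists and, of other lists without called genes, the 2 of highest mean CPM. Runx2, Sp7, Alpl, Ibsp, Phex and Sost were always to be named. Any other member of the bone lists could be named, and no rule chose among them. The bone genes named do not stand for their lists. Genes beyond these are said to be chosen after their values were seen. Library totals were 41499637 to 58750531 counts in the 20 tumours, and the spread between tumours sets the errors given.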

Additional observations from a re-analysis of the deposited data

Results flagged for a closer look

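Among 78 groups of 10 values for single genes, 10 held a highest or lowest tumour far from the rest by Dixon's test on log-scaled levels. Chance gives this in about 1 of 20 groups if the log-scaled levels are normally spread. The levels below are in CPM, not on the log scale of the test. In the high tumours, P3h4 was 57.4 CPM in p53R172H/fl 5798 (nearest 99.5) and Ramp1 was 11.5 CPM in the same tumour (nearest 31.4). Vdr was 25.0 CPM in p53R245W/fl 1818 (nearest 60.4), and Adamts14 was 13.9 CPM there (nearest 36.5). The tumour of the highest score, p53fl/fl 1979, had Lum at 8.72 CPM (nearest 86.1) and Col13a1 at 409 CPM (nearest 109). Slc20a1 was 21.9 CPM in p53fl/fl 6019 (nearest 41.2). In the low tumours, Matn4 was 0.165 CPM in p53fl/fl 1512 (nearest 4.08), Ptprz1 was 2.89 CPM in p53fl/fl 1606 (nearest 22.6) and Bmp1 was 988 CPM in p53R172H/fl 865 (nearest 448).

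The slope of Cstf2t on the score differed between genotypes by the interaction test of edgeR (adjusted p = 0.0169). Without p53R245W/fl 1827 the edgeR adjusted p was 0.9999.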

How the results depend on the processing

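The count of genes called between high and low tumours was 2 with edgeR. It was 231 with DESeq2 and 10 with limma voom. It was 0 with library set as a covariate (1745 genes at an unadjusted p under 0.05) and 0 within set A (970). With the score as a continuous measure it was 51 over 31 tumours, 16 there with library set as a covariate, 0 over the 11 middle tumours (933) and 0 over the R1002 libraries (2229). Without the 4 libraries that held both Xist and Ddx3y it was 1. Leaving out single tumours gave 0 to 9, with 9 without p53R172H/fl 5798 and 4 without p53R172H/fl 1441. Other factors, filters, no genotype covariate and a score from TMM CPM gave 2 or 3. The sign of Ackr4 turned in the middle tumours (-0.28 per score unit). The interaction called 10 genes with no filter and 0 without p53R245W/fl 1827. The cause was not tested for any of these. Set C, with 2 low tumours, was not run alone. No paired analysis was possible because no tumour number is shared between the groups. Library set and score group overlap in part and cannot be fully told apart.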
